A study of Mus musculus with 8 samples.

Results

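The DEAD and DEAH box genes encode RNA helicases, enzymes that use ATP to unwind or remodel RNA and RNA-protein complexes. The set was taken as the array genes whose deposited name begins with Ddx or Dhx and a number, apart from a pair of cytosolic RNA sensors not analysed here. It holds 51 genes of the 28481 gene names on the array, measured by 89 probes, and the brightest probe of each gene over the 7 conditions gave its value. All 51 passed the filter on dim probes, by which a gene had to be well above background on at least 2 of the 8 arrays and which 19815 genes passed. Ddx4 was well above background on 5 arrays, Ddx60 on 7, and the other 49 on all 8. RefSeq now gives 2 members another symbol: Ddx26b is now Ints6l and Ddx39 is now Ddx39a. Membership rests on the deposited name, and helicase activity was not checked for each member.

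The cells were CD8+ T cells purified from the spleen of OT-I mice (C57BL6 background), which carry a transgenic T cell receptor (TCR) for the ovalbumin peptide SIINFEKL on H-2Kb, and all groups share that transgene and the same culture. IFNβ, a type I interferon, was given alone for 2 h or 7 h. It was given for 1 h before SIINFEKL streptamers, which engage the TCR, for 1 h or 6 h. Streptamers were given alone for 1 h or 6 h, and 2 further samples were left untreated. Each treated condition had 1 array and the untreated cells had 2. The ages of the mice, the number pooled per array and the IFNβ dose are not given in the sources used here.

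Naive T cells are small and make little protein, and stimulation through the TCR is known to start growth, with a large increase in ribosome production before the cells divide. Many DEAD and DEAH box helicases act in the nucleolus, where they remodel the precursor of ribosomal RNA and release the small nucleolar RNAs that guide its processing. Others drive the steps of the spliceosome, load or release mRNA at the nuclear pore, open structured mRNA leaders for translation or take part in mRNA decay. A few are known from antiviral defence or from germ cells.

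Promoter windows in RefSeq (build GRCm38.p6), running from 250 bases before to 50 bases after each start, matched 46 of the 51 genes, with 57 windows. They are shown for 5 genes on which the results below turn, 4 with the highest estimates 6 h after TCR stimulation and 1 that stood apart with IFNβ, each 5′ to 3′ on the gene's own strand. Capitals mark matches, on either strand, to 1 searched motif per sequence: GAAA, any 2 bases and GAAA again in Ddx60, CACGTG in Dhx33, CCGGAAG in Ddx27 and GGGCGG in Ddx21 and Ddx18, where it stands in Ddx18 as its reverse complement.
Ddx60 (chr8:61927837-61928136, plus strand): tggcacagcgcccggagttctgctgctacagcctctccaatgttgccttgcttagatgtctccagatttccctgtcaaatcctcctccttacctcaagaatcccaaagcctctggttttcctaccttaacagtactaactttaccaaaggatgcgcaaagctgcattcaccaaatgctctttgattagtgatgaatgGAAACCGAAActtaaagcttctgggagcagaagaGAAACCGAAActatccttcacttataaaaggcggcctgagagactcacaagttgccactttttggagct
Dhx33 (chr11:71004383-71004682, minus strand): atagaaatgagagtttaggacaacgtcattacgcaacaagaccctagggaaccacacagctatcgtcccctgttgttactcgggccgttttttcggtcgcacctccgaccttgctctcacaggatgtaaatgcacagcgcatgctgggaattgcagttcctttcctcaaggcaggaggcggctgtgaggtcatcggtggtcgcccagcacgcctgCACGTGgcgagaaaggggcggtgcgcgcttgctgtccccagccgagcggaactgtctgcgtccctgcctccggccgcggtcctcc
Ddx27 (chr2:167015063-167015362, plus strand): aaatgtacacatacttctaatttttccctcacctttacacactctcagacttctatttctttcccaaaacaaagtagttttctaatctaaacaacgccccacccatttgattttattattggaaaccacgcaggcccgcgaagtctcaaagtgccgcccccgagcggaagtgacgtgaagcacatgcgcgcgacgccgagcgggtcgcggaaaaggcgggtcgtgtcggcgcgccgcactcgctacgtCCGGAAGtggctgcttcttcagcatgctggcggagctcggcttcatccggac
Ddx21 (chr10:62602249-62602548, minus strand): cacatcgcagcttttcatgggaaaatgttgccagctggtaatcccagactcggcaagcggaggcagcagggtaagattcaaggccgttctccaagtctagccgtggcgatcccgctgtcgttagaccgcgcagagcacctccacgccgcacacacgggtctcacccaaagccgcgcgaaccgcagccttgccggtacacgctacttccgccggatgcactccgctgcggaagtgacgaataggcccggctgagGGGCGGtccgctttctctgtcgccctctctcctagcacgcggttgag
Ddx18 (chr1:121567931-121568230, minus strand): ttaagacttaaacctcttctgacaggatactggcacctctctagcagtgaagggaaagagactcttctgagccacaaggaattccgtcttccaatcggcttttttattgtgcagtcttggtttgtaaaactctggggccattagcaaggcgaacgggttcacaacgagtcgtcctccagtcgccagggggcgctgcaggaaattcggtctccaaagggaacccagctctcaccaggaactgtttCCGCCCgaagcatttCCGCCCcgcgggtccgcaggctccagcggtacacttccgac
The spaced GAAA repeat, a form of the interferon-stimulated response element, matched 2 times in the Ddx60 window, the first 53 bases before the start. Among the members only Ddx49 also held it, and 3.44% of all 32851 windows in the table did. CCGGAAG, the core that ETS-family factors are known to bind, was found in windows of 18 of the 46 genes and 8 of the 16 genes of ribosome assembly. Counted by window, 35.1% of the members' windows held CCGGAAG, against 8.86% of all windows. GGGCGG, the core of the SP1 site, was found for 33 of 46 genes, in 59.6% of the members' windows against 35.7% of all windows. CACGTG, the E-box bound by MYC, was found for 7 of 46 genes (12.3% of the members' windows, 7.15% of all windows), Dhx33 being the one among the genes of ribosome assembly. CCGCCAT followed by any base and TT, the YY1 motif, was found for 4 of 46 (7.02% and 1.36%) and TTTCGCGC, an E2F motif, for none (0.323% of all windows). CCGGAAG and GGGCGG are rich in C and G, as many promoters are, and base composition was not matched in these shares. A match describes the letters of the window and is not a measured binding site.

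Signal below is the processed intensity of a probe, scaled so that the 75th percentile of each array is 1500. Differences are on the log2 scale. Between 26065 and 29533 of the 43379 spots other than controls were well above background on an array, and the number of arrays limits the precision. The arrays came from 2 slides of 4. The 2 arrays with 1 h of TCR stimulation, with and without IFNβ, have exchanged names between the deposited scanner files and the deposited value table, and the value table's naming is used, which antiviral genes favoured in earlier work on these data. The sign of an interferon-type gene within that pair is therefore no independent evidence. Over repeated probes, the 2 untreated arrays differed by about the noise between spots (robust SD 0.0349 over 152 repeated probes, plain SD 0.0687, against 0.0541 from spot noise), and their mean was counted as 1 sample. The helicases differed between them by a median of 0.05 in size, the highest being 0.40 for Ddx51. Over all genes the median was 0.07, and 568 of 19555 were at least 2-fold apart, by up to 5.17.

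All 8 T cell markers on the list, Cd3e and Cd8a among them, were measured. Markers of other cell types were also present and differed between conditions. The summed signal of 5 B cell markers was 4398 to 5196 at 6 h of TCR stimulation, against 34757 to 40350 with IFNβ alone and 12561 to 12920 on the untreated arrays. The sum of 6 NK cell markers ran the same way, 235 to 256 against 1231 to 1329 with IFNβ alone and 458 on both untreated arrays. The 7 myeloid markers summed to 1638 to 1940, against 2115 to 4828 with IFNβ alone and 3861 to 4005 untreated. The T cell markers summed to 341274 to 375689, against 876134 to 907271 with IFNβ alone and 643249 to 644771 untreated, and 3 of them fell at 6 h. The 3 erythroid markers summed to 1965 to 2986 at 6 h, against 4499 to 4685 with IFNβ alone and 1758 to 1789 untreated. The 2 CD4 T cell markers summed to 196 to 223 at 6 h, against 265 to 284 with IFNβ alone and 181 untreated. These sums moved with the TCR and IFNβ comparisons below, not all in the same direction, and their part in the helicase results was not tested.

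At 6 h of TCR stimulation, 28 of the 51 helicase genes rose and 3 fell. An additive model asked for the TCR effect from 2 arrays with 6 h of TCR stimulation against 3 samples without it (untreated, IFNβ 2 h and IFNβ 7 h), with IFNβ as a term. Over all 19814 genes tested with limma, 22.5% rose and 22.7% fell at an adjusted p under 0.05 (45.2% together). The median estimate was 0.84 over the helicases and 0.05 over all genes. In 34 helicases both arrays with 6 h of TCR stimulation lay above all 4 arrays without it, and in 7 both lay below, while 35.3% and 31.5% of all genes did so. Scaling to the array median raised the median of all genes at 6 h to 0.37 and that of the helicases to 1.15, with 35 higher and 3 lower, while 29.9% of all genes were then higher and 17.9% lower. Quantile normalization gave a helicase median of 0.53 with 21 higher and 4 lower (all genes 0.09), and normexp with quantile normalization 0.45 with 23 higher and 8 lower (all genes 0.03). Against the untreated mean alone, 26 helicases were at least 2-fold higher and 4 lower with TCR 6 h, and 25 and 5 with IFNβ 1 h and TCR 6 h. Of all genes 21.6% were at least 2-fold higher and 21.8% lower with TCR 6 h, and 21.4% and 22.3% with both. On slide 2 alone 26 helicases and 32.9% of all genes passed, and with slide as a block 28 helicases and 41.3% of all genes. In bulk RNA a different mix of cells cannot be told apart from a different level per cell.

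**Figure D1:**
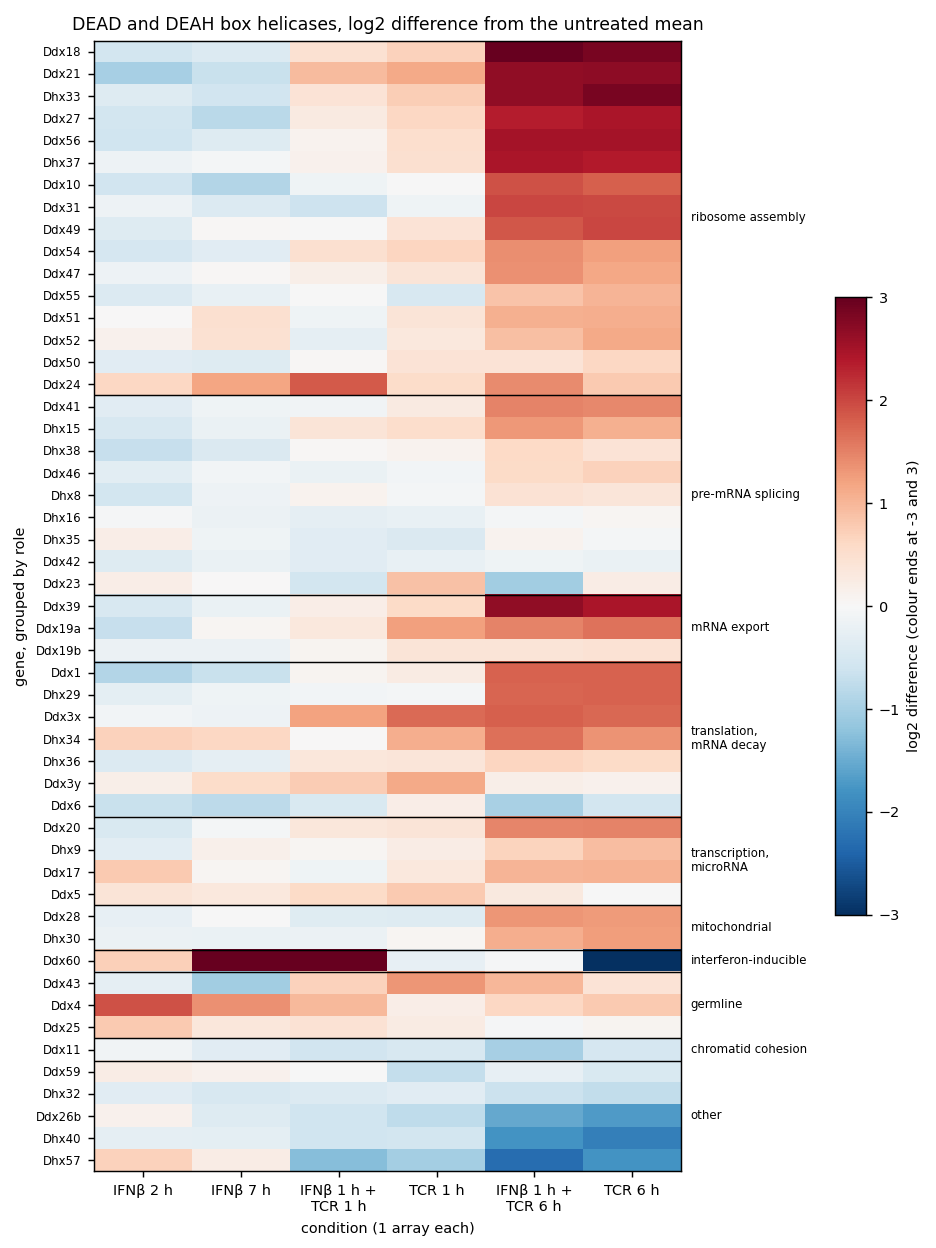
Log2 difference of each of the 51 helicase genes from the untreated mean in the 6 treated conditions (columns, 1 array each), with genes in rows grouped by role and sorted by the estimate at TCR 6 h. Red marks higher and blue lower signal, with the colours ending at -3 and 3; the block of ribosome assembly is red in both columns with 6 h of TCR stimulation, and Ddx60 passes the ends of the scale in 3 columns.

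The genes of ribosome assembly held more of the rises than any other role. Of 16 measured, 14 rose and none fell, with a median of 2.08 and a range of 0.66 to 3.19. Ddx18, orthologue of yeast Has1 and a factor of the large subunit, had a signal of 46392 with TCR 6 h and 50821 with IFNβ 1 h and TCR 6 h, against 4397 and 4893 with IFNβ alone and 6379 and 6547 untreated. It rose 9.14-fold over the samples without TCR (3.19 ± 0.25, SE, adjusted p = 0.00045), and by 2.84 and 2.98 over the untreated mean alone. The groups did not overlap, and both arrays with IFNβ alone were the lowest. Its probe lies at 123451851 to 123451910 on chromosome 1 in mm9, the build of the file headers.

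Ddx21, which takes part in rRNA transcription and processing, had 48889 with TCR 6 h and 48427 with IFNβ 1 h and TCR 6 h, against 3797 and 4799 with IFNβ alone and 7247 and 8009 untreated. It rose 8.98-fold over the samples without TCR (3.17 ± 0.29, adjusted p = 0.00059), and by 2.68 and 2.67 over the untreated mean alone. Its probe lies at 62043317 to 62043376 on chromosome 10 (mm9). The 3 probes of Ddx21 all lay higher at 6 h, by 2.51 to 3.93. Its close relative Ddx50 had 21875 and 18952 at 6 h, against 11305 and 10951 with IFNβ alone and 14631 and 13844 untreated. Ddx50 rose 1.63-fold (0.70 ± 0.22, adjusted p = 0.04), a call lost in 13 of 20 alternative settings. The neighbouring copies Ddx21 and Ddx50 thus had estimates of 3.17 and 0.70, and the difference between them was not tested.

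Dhx33, known in human cells for a role in transcription of ribosomal DNA, had 36936 with TCR 6 h and 32512 with IFNβ 1 h and TCR 6 h, against 3918 and 3436 with IFNβ alone and 5131 and 5123 untreated. It rose 8.12-fold (3.02 ± 0.23, adjusted p = 0.00044). Ddx27, which acts with the PeBoW complex in rRNA processing, had 45834 and 42955 at 6 h, against 5740 and 4837 with IFNβ alone and 8417 and 8373 untreated, and rose 6.89-fold (2.78 ± 0.25, adjusted p = 0.00058). For both genes the lowest array with TCR 6 h stood far above the highest without TCR.

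Ddx56, a nucleolar helicase related to yeast Dbp9, rose 6.81-fold (2.77 ± 0.24), with 27178 and 27409 at 6 h against 3217 to 4922 on the 4 arrays without TCR. Dhx37, the orthologue of the yeast helicase that releases the U3 small nucleolar RNA, rose 5.51-fold (2.46 ± 0.23), with 1696 and 1760 at 6 h against 290 to 328. These intervals without TCR were narrow compared with the gap. Ddx10, related to yeast Dbp4, rose 4.92-fold, Ddx31, related to Dbp7, 4.42-fold and Ddx49, related to Dbp8, 4.06-fold. Ddx54 (1.56), Ddx47 (1.30), Ddx55 (1.14) and Ddx51 (0.90) rose by less on the log2 scale. The call of Ddx51 was lost in 9 of 20 alternatives and that of Ddx55 in 4.

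Ddx24 and Ddx52 did not pass. Ddx52, related to yeast Rok1, had 11016 and 9426 at 6 h, against 5540 and 6866 with IFNβ alone and 5066 and 4970 untreated, an estimate of 0.80 ± 0.29 (adjusted p = 0.065). The arrays did not overlap. Ddx24 had an estimate of 0.66 ± 0.29 (adjusted p = 0.11) and its groups overlapped, since it was also high with IFNβ alone, as described below.

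**Figure D2:**
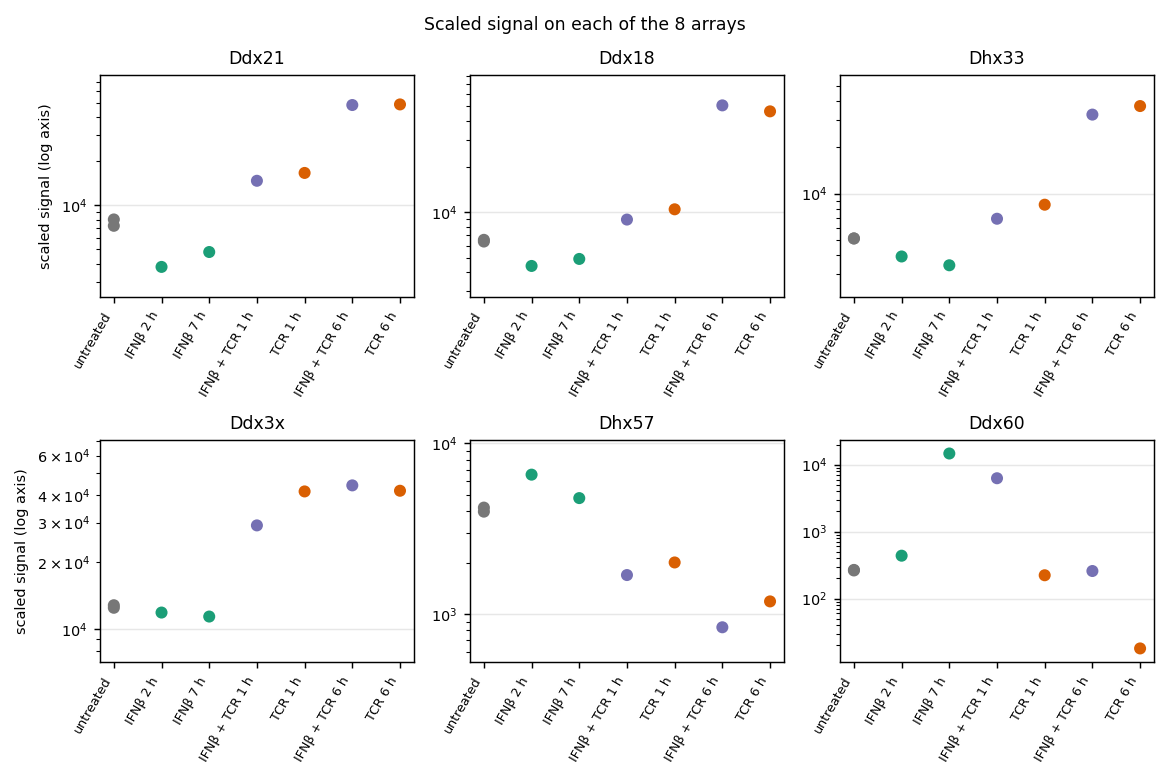
Scaled signal on a log axis for 6 helicase genes on the 8 arrays, grouped by condition on the horizontal axis, 1 point per array. Ddx21, Ddx18 and Dhx33 are highest on both arrays with 6 h of TCR stimulation, Ddx3x is already high at 1 h, Dhx57 is lowest at 6 h, and Ddx60 is highest with IFNβ 7 h; the point for Ddx60 at TCR 6 h, 18, was not well above background.

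Among 9 splicing helicases 4 rose and none fell (median 0.64). Ddx41, a component of the catalytic spliceosome, had 7077 with TCR 6 h and 7303 with IFNβ 1 h and TCR 6 h, against 2056 and 2410 with IFNβ alone and 2661 and 2590 untreated, and rose 2.99-fold (1.58 ± 0.24, adjusted p = 0.0028). Dhx15, the orthologue of yeast Prp43, which takes the spliceosome apart and also acts in ribosome assembly, had 59153 and 70555 at 6 h, against 20538 and 24518 with IFNβ alone and 26740 and 30208 untreated. It rose 2.63-fold (1.40 ± 0.25, adjusted p = 0.0057), with no overlap. The call of Dhx15 was lost in 2 of 20 alternatives, quantile normalization and leaving out the 6 h array that also had IFNβ. Dhx38 (0.84, yeast Prp16) and Ddx46 (0.74, yeast Prp5) passed and lost the call in 12 and 13 of 20 alternatives.

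The step-specific helicases Dhx8 (yeast Prp22), Dhx16 (Prp2), Dhx35, Ddx42 and Ddx23 (Prp28) did not pass, with estimates of 0.64, 0.05, 0.02, 0.01 and -0.61. Of these Dhx16 and Ddx42 changed sign with quantile normalization, to -0.49 and -0.48. Ddx23 was dim, with 62.1 and 25.9 at 6 h against 52.2 to 61.5 without TCR, and the 2 arrays at 6 h differed by more than the groups. Dhx8, Ddx46 and Ddx42 were the 3 of 24 genes with several probes on all arrays whose probes moved in opposite directions at 6 h. In Dhx8 they stood at 0.65 and -0.76.

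Of the 3 genes of mRNA export 2 rose. Ddx39, a relative of the export helicase UAP56, had 87131 with TCR 6 h and 100414 with IFNβ 1 h and TCR 6 h, against 11344 and 13892 with IFNβ alone and 15622 and 15986 untreated. It rose 6.76-fold (2.76 ± 0.26, adjusted p = 0.00061), with no overlap. Ddx19a, one of a pair of near-identical genes related to yeast Dbp5, which releases mRNA at the cytoplasmic face of the pore, rose 3.25-fold (1.70 ± 0.32, adjusted p = 0.0067), with 1561 and 1408 at 6 h against 314 to 518 without TCR. Its copy Ddx19b had an estimate of 0.49 ± 0.22 (adjusted p = 0.11). The second, dimmer probe of Ddx19b had 409 and 408 at 6 h, against 148 to 214 without TCR. Its mean was higher by 1.16 at 6 h, where that of the brightest probe was higher by 0.52. Probes for such close copies may share target RNA, so the split between Ddx19a and Ddx19b is uncertain.

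Among 7 genes of translation and mRNA decay 4 rose and none fell (median 1.07). Ddx1, a subunit of the tRNA ligase complex, had 34430 with TCR 6 h and 34254 with IFNβ 1 h and TCR 6 h, against 5499 and 6331 with IFNβ alone and 10158 and 9915 untreated. It rose 4.68-fold (2.23 ± 0.27, adjusted p = 0.0014). Dhx29, which helps the small ribosomal subunit through structured leaders, had 13340 and 13004 at 6 h, against 3195 and 3569 with IFNβ alone and 3951 and 3856 untreated, and rose 3.67-fold (1.88 ± 0.22, adjusted p = 0.0012). Ddx3x, a helicase of translation initiation, had 41714 and 44092 at 6 h against 11389 to 12800 without TCR, and rose 3.52-fold (1.81 ± 0.24, adjusted p = 0.0018). All 3 were higher at 6 h on both arrays than on any array without TCR.

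Dhx36, which unwinds G-quadruplexes, rose 1.76-fold and lost the call in 7 of 20 alternatives. Dhx34, of nonsense-mediated decay, had an estimate of 1.07 (adjusted p = 0.079). Ddx6, which represses translation and promotes decapping, had 2975 and 2216 at 6 h, against 2738 and 2521 with IFNβ alone and 4213 and 4493 untreated. Its estimate was -0.38 ± 0.22 (adjusted p = 0.22), with overlapping groups. Ddx3y, the Y-linked copy of Ddx3x, had an estimate of -0.07 ± 0.28 against 1.81 for Ddx3x, under the same limit on close copies.

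Ddx5 and Ddx17, paired cofactors of Drosha, did not pass. Ddx17 had 64622 with TCR 6 h and 63351 with IFNβ 1 h and TCR 6 h, against 30184 to 53617 without TCR. These arrays did not overlap, and the estimate was 0.76 ± 0.33 (adjusted p = 0.11). Ddx5 had 110232 with TCR 6 h and 137023 with IFNβ 1 h and TCR 6 h, against 145539 and 139430 with IFNβ alone and 111909 and 111168 untreated, an estimate of -0.07 ± 0.25 (adjusted p = 0.85). With quantile normalization the estimate for Ddx5 was -0.76 (adjusted p = 0.036), and with array median scaling it was 0.25. Ddx20, the Gemin3 subunit of the SMN complex, rose 3.09-fold (1.63 ± 0.24, adjusted p = 0.0027). Dhx9, RNA helicase A, rose 1.77-fold (0.82 ± 0.25, adjusted p = 0.036), with 93767 and 78237 at 6 h against 39599 to 54779 without TCR, and lost the call in 12 of 20 alternatives.

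Both helicases of mitochondrial ribosome assembly rose, Ddx28 by 2.61-fold (1.38 ± 0.22) and Dhx30 by 2.40-fold (1.27 ± 0.21). Ddx28 had 4888 with TCR 6 h and 5096 with IFNβ 1 h and TCR 6 h, against 1718 and 1991 with IFNβ alone and 1983 and 2067 untreated. The call of Dhx30 was lost in 3 of 20 alternatives, among them quantile normalization with and without normexp. None of the 3 germline helicases passed: Ddx4 was at -0.24, Ddx25 at -0.31 and Ddx43 at 1.10. Ddx11, a DNA helicase of chromatid cohesion, stood at -0.65 (adjusted p = 0.065).

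The 3 genes that fell came from the 5 members in no named role. Dhx57, a DEAH box protein of little-known function, had 1184 with TCR 6 h and 835 with IFNβ 1 h and TCR 6 h, against 6554 and 4776 with IFNβ alone and 4201 and 3977 untreated. It was 5.09-fold lower (-2.35 ± 0.31, adjusted p = 0.0019). Dhx40 had 4508 and 5437 at 6 h, against 15682 and 15280 with IFNβ alone and 18987 and 18599 untreated, and was 3.35-fold lower (-1.75 ± 0.24, adjusted p = 0.0021). Ddx26b, related to a subunit of the Integrator complex, had 2785 and 3167 at 6 h, against 9993 and 7012 with IFNβ alone and 8986 and 9256 untreated, and was 2.88-fold lower (-1.53 ± 0.26, adjusted p = 0.0046). None of the 3 overlapped between groups. The other members of that group, Dhx32 (-0.45) and Ddx59 (-0.41), did not pass.

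At 1 h of TCR stimulation 2 of the 51 genes rose and none fell, while 2.58% of all genes rose and 1.73% fell (4.31% together). The median was 0.26 over the helicases and -0.05 over all genes, and 12 helicases had an unadjusted p under 0.05, as did 23.5% of all genes. Both arrays with 1 h of TCR stimulation lay above the 4 without it in 20 helicases and below in 7, while 15.6% and 19.2% of all genes did so.

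Ddx3x had 41422 with TCR 1 h and 29175 with IFNβ 1 h and TCR 1 h, against 11868 and 11389 with IFNβ alone and 12467 and 12800 untreated. It rose 2.85-fold (1.51 ± 0.24, adjusted p = 0.029). Ddx21 had 16644 with TCR 1 h and 14711 with IFNβ 1 h and TCR 1 h, against 3797 and 4799 with IFNβ alone and 7247 and 8009 untreated, and rose 2.89-fold (1.53 ± 0.29, adjusted p = 0.045). Neither overlapped between groups. Both calls were lost without either 1 h array or either array with IFNβ alone, when 0 of 51 genes passed. They were also lost with the mean of all probes of a gene and on slide 1 alone. Ddx21 lost the call in 13 of 19 alternatives, quantile normalization, slide as a block and the scanner files' naming among them, and Ddx3x in 6. The dimmest of the 3 probes of Ddx3x had 535 with TCR 1 h and 87.1 with IFNβ 1 h and TCR 1 h, against 77.4 and 81.9 untreated.

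Dhx57 had 2003 with TCR 1 h and 1690 with IFNβ 1 h and TCR 1 h, against 3977 to 6554 without TCR, an estimate of -1.46 (adjusted p = 0.059). Ddx43, a helicase of testis and tumours, had an estimate of 1.40 (adjusted p = 0.1). Ddx18, Dhx33, Ddx27 and Ddx54 stood at 0.86, 0.84, 0.82 and 0.81 and did not pass. Ddx5 had 192260 and 165628 at 1 h, against 111168 to 145539 without TCR, with no overlap and an estimate of 0.47 (adjusted p = 0.31). The second probe of Ddx5 had 92324 and 102239 at 1 h, against 73073 to 96815 without TCR, and its groups overlapped. Ddx31 and Ddx28 had estimates below 0 at 1 h, -0.23 and -0.29.

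**Figure D3:**
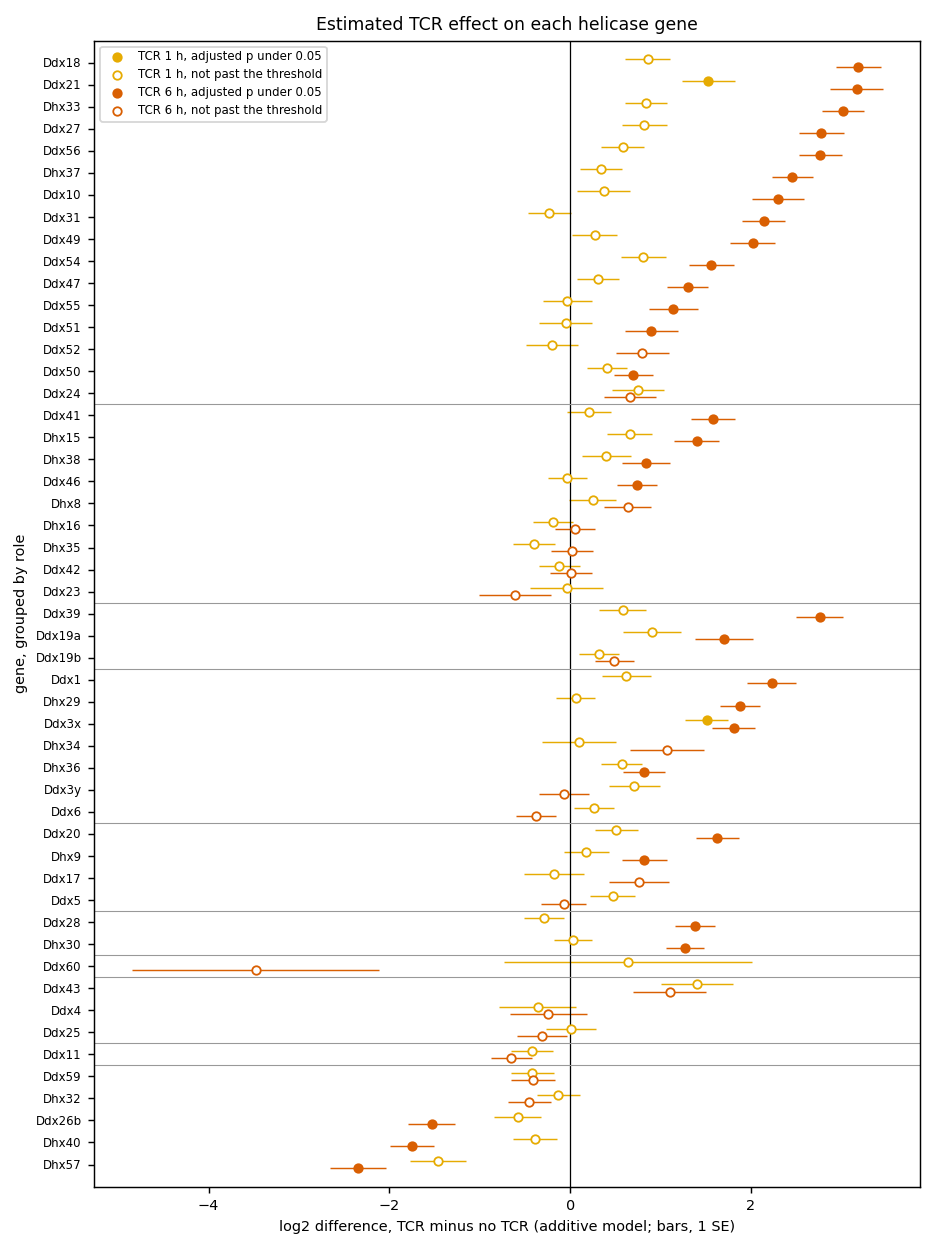
Estimated TCR effect on each of the 51 helicase genes (log2, additive model, bars 1 SE) at 1 h in yellow and 6 h in orange, with filled points for an adjusted p under 0.05 and lines between role groups. At 6 h 31 points are filled and at 1 h 2, those of Ddx21 and Ddx3x.

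Between the 2 times, 18 helicases were higher and 2 lower at 6 h than at 1 h, while 16.5% of all genes were higher and 15.6% lower (32.1% together). The median difference was 0.74 over the helicases and 0.08 over all genes, and 30 helicases had an unadjusted p under 0.05, as did 44.1% of all genes. It was 0.27 over the helicases and 0.10 over all genes with quantile normalization, and 0.18 and 0.04 with normexp and quantile normalization. Of the 16 genes of ribosome assembly 11 were higher. Ddx31 had the highest difference, with 12229 with TCR 6 h and 12489 with IFNβ 1 h and TCR 6 h, against 2804 with TCR 1 h and 2029 with IFNβ 1 h and TCR 1 h, a 5.18-fold difference (2.37 ± 0.26, adjusted p = 0.0025). Ddx18 followed at 5.04-fold (2.33 ± 0.27, adjusted p = 0.0027). Ddx56, Ddx39, Dhx33 and Dhx37 were 4.56-fold, 4.53-fold, 4.54-fold and 4.34-fold higher. Each of these 6 genes had both 6 h arrays above both 1 h arrays, an order that 39.6% of all genes showed.

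Ddx21 was 3.11-fold higher at 6 h (1.64 ± 0.31, adjusted p = 0.011), a call lost in 5 of 18 alternatives. Dhx29 and Ddx28, at 0.06 and -0.29 at 1 h, were 3.53-fold and 3.19-fold higher at 6 h than at 1 h. Ddx3x differed by 0.30 ± 0.26 between the times (adjusted p = 0.41), with 41714 and 44092 at 6 h against 41422 and 29175 at 1 h. Dhx40 was lower at 6 h by -1.36 ± 0.26 (adjusted p = 0.011) and Ddx26b by -0.94 ± 0.28 (adjusted p = 0.048), the call of Ddx26b being lost in 10 of 18 alternatives. The 6 h arrays lay on slide 2 and the 1 h arrays on slide 1. With slide as a block 12 helicases passed, and 14.3% of all genes.

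With IFNβ, none of the 51 helicases passed the test, and 0.0656% of all genes did, 13 genes, all higher. In 0 of the 51 did all 4 arrays with IFNβ lie above, or all below, the arrays without, while 2.01% of all genes lay above and 0.511% below. With limma 3 helicases had an unadjusted p under 0.05, as did 8.6% of all genes. The estimates, from 4 arrays with IFNβ against 3 samples without, had a median of -0.13 over the helicases and 0 over all genes. They were below 0 in 40 of 51 helicases and in 10024 of all 19815 genes. With the scanner files' naming of the 1 h pair the medians were -0.04 and 0.06 and no gene passed. On slide 2 alone they were -0.06 and 0.03, also with no gene. On slide 1 alone they were -0.23 and -0.01, and 1.29% of all genes but no helicase passed. In the genes of ribosome assembly 15 of 16 were below 0 (median -0.23, lowest -0.40), and none passed. On single arrays their median lay at -0.39 after IFNβ 2 h and -0.36 after IFNβ 7 h relative to untreated, and at about 0 between IFNβ 1 h with TCR 6 h and TCR 6 h. In the same order the medians were -0.27, -0.16 and 0.03 over all 51 helicases and 0.07, 0.12 and 0.01 over all genes. Ddx21, as given above, had 3797 and 4799 with IFNβ alone against 7247 and 8009 untreated. Its estimate for IFNβ was -0.39 ± 0.24 (adjusted p = 0.7).

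Ddx60, an interferon-inducible helicase, had the highest estimate, 3.90 ± 1.15 (adjusted p = 0.43). Its signal was 437 with IFNβ 2 h and 14689 with IFNβ 7 h, against 263 and 268 untreated. It was 6273 with IFNβ 1 h and TCR 1 h, against 223 with TCR 1 h, and 258 with IFNβ 1 h and TCR 6 h, against 18 with TCR 6 h. With the value table's naming each array with IFNβ was higher than its counterpart without. The 1 h pair turns round with the scanner files' naming, under which the estimate was 1.01. The array with IFNβ and 6 h of TCR stimulation was at the untreated level. The second probe followed the same order, with 616, 3653, 3415 and 141 on the arrays with IFNβ in the order above, against 154 and 163 untreated, 188 with TCR 1 h and 11.9 with TCR 6 h.

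At TCR 6 h alone Ddx60 was not well above background, so only bounds can be given. Signal with IFNβ 1 h and TCR 6 h was at least 10.4-fold higher than with TCR 6 h alone. The TCR 6 h array was lower than the untreated arrays by at least 3.42 on the log2 scale. Here the dim value is the higher of the probe's own signal and the lowest signal of a probe well above background on that array, 24.9. The fitted TCR 6 h estimate for Ddx60 was -3.48 ± 1.37 (adjusted p = 0.083).

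Ddx24, a helicase of ribosome assembly related to yeast Mak5, had 11633 with IFNβ 2 h and 17398 with IFNβ 7 h, against 7810 and 7425 untreated. It had 27201 with IFNβ 1 h and TCR 1 h, against 11119 with TCR 1 h, and 20355 with IFNβ 1 h and TCR 6 h, against 13086 with TCR 6 h. Every array with IFNβ was above its counterpart with the value table's naming, but the 1 h pair turns round with the scanner files' naming. The share of all genes with this order was not counted. The estimate was 0.94 ± 0.24 (adjusted p = 0.37). The second probe of Ddx24 differed less within the pairs with TCR, by 0.30 at 1 h and 0.12 at 6 h, where the brightest probe differed by 1.29 and 0.64. With the scanner files' naming the estimate was 0.16.

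Besides Ddx60 and Ddx24, Ddx6 had an unadjusted p under 0.05 as well, at -0.62 ± 0.19 (adjusted p = 0.44). It had 2738 with IFNβ 2 h and 2521 with IFNβ 7 h against 4213 and 4493 untreated, 3174 with IFNβ 1 h and TCR 1 h against 5050 with TCR 1 h, and 2216 with IFNβ 1 h and TCR 6 h against 2975 with TCR 6 h. All 4 arrays with IFNβ were below their counterparts with the value table's naming, but the 1 h pair turns round with the scanner files' naming. How many of all genes show such an order was not counted. Ddx4, of germ cells, had 66.1 with IFNβ 2 h and 45.3 with IFNβ 7 h and was not well above background on either untreated array, so that IFNβ 2 h was at least 2.7-fold higher than untreated. The estimate for Ddx4 was 0.85 (adjusted p = 0.6).

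**Figure D4:**
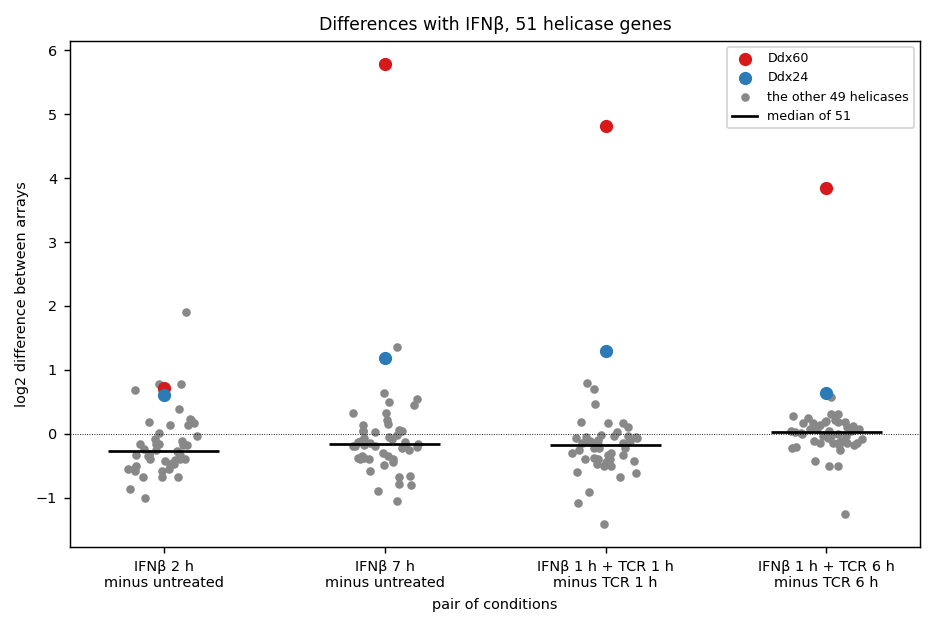
Log2 difference between arrays with IFNβ and their counterparts without it for the 51 helicase genes, 1 grey point per gene, with Ddx60 in red, Ddx24 in blue and the median as a bar. The medians are -0.27, -0.16, -0.18 and 0.03 from left to right, and Ddx60 is the highest point in 3 of the 4 pairs; its value at TCR 6 h is measured against a signal not well above background.

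The IFNβ effect was not shown to depend on TCR stimulation for any member. With limma 0 of 51 passed for the interaction at 1 h and 0 at 6 h, and 0% of all genes did. At each time 2 helicases had an unadjusted p under 0.05, while 7.61% of all genes had at 1 h and 8.24% at 6 h. At 1 h these were Dhx34 (-1.74) and the dim Ddx23 (-1.53). Both rest on the naming of the 1 h pair, and with the scanner files' naming they stood at 0.41 and 1.31 (adjusted p = 0.71 and 0.3), when none of the 51 helicases and 86 of all genes passed. Dhx34 had 1826 with IFNβ 1 h and TCR 1 h against 3854 with TCR 1 h, and 2961 and 2837 with IFNβ alone against 1817 and 1842 untreated. This model had 1 residual degree of freedom, which came from the difference between IFNβ 2 h and IFNβ 7 h.

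Related genes were given from 2 lists. Of 13 genes listed as helicases of the same superfamily under other names, 7 rose and 1 fell at 6 h of TCR stimulation (median 0.93). Of all genes 22.5% rose and 22.7% fell. Eif4a1, the DEAD box helicase of the cap-binding initiation complex, rose 5.53-fold (2.47 ± 0.36, adjusted p = 0.0025), and the mitochondrial Supv3l1 rose 4.55-fold. D1Pas1 rose 4.10-fold, and as a retrotransposed copy of Ddx3x its probe may read that gene. Mtrex, the helicase of the nuclear exosome, rose 2.95-fold. At 1 h none of the 13 passed, and 4.31% of all genes did.

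Of 37 cofactors that bind or activate these helicases, 19 rose and 3 fell at 6 h (median 0.98), against 22.5% and 22.7% of all genes. Pdcd4, an inhibitor of Eif4a1, was lower by -3.88 ± 0.33 (adjusted p = 0.0005), while Gpatch4 rose 9.91-fold, Gemin4, a partner of Ddx20, 6.77-fold and Utp14a, a partner of Dhx37 in yeast, 6.41-fold. Nkrf, a G-patch protein that activates Dhx15 in human cells, passed at 1 h (1.97 ± 0.35, adjusted p = 0.038) and at 6 h (2.21 ± 0.35, adjusted p = 0.0034). It was the one cofactor of 37 to pass at 1 h, when 2.58% of all genes rose and 1.73% fell. With IFNβ none of either list passed, and Ifih1, a cytosolic RNA sensor, had an estimate of 4.49 (adjusted p = 0.13).

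Over the 7 conditions, the genes outside the family most like Ddx21 on the log2 scale were Urb2 (Pearson r = 0.9994), Gorasp2 (0.9975) and Hsp90aa1 (0.9974). Within the family Ddx54 (0.997) and Dhx15 (0.992) came first, and Dhx57 (-0.975) and Ddx26b (-0.95) last. These values describe 7 points from single arrays that share slides and cell mixtures. Urb2 had 9011 with TCR 6 h and 8675 with IFNβ 1 h and TCR 6 h, against 464 and 636 with IFNβ alone and 1171 and 1166 untreated, and 2595 and 2344 on the 1 h arrays.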

How the data were processed

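Per the file headers, the intensity in the authors' scanner files is Agilent Feature Extraction's processed signal (version 10.7.3.1, with background subtracted and the array detrended), while the submitters' processing notes name version 9.5.3.1. The deposited series value table is also intensity, and each column equals 1 array's signal times 1 factor (1.209 to 1.857), floored at 15. The medians by column were 89.57, 102.4, 92.62, 95.78, 92.25, 100.6, 80.68 and 73.76. The match to the scanner signal settles its scale and direction, and no centring was found. For the 2 arrays at 1 h of TCR stimulation, column and scanner file were exchanged. Probe coordinates are mm9.

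Each array had 45018 spots (1639 controls, left out) for 41174 probes. Outlier spots (100 to 246 per array) were left out, repeated spots averaged, and arrays were brought to the same 75th percentile (1500) before log2. The brightest probe of a gene was tested with limma 3.58.1 in R 4.3.3 (lmFit and eBayes), with 3 residual degrees of freedom and Benjamini-Hochberg adjustment over all genes (threshold 0.05). No treated condition had a replicate, so arrays sharing a treatment stood in for replicates, and nothing says the samples came from separate animals. The p values then measure only the spread between these samples. The code was tested on simulated data. Python 3.11.15 with matplotlib 3.10.9 made the figures.

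The members, lists and tests were chosen with earlier results of these data known. Any member could be named; the rule took the 12 largest changes in each direction among those that passed, the extremes of each role group and 8 members always given, the 4 largest of the related lists and the 3 genes most like Ddx21. Members kept their deposited names, and 48 of 51 were matched to RefSeq by accession. Symbols of other genes were updated by accession where one matched. The alternatives were another scaling, quantile normalization with or without normexp, other filters and probe rules, untreated arrays apart, slide as a block or alone, the scanner files' naming, the value table and leaving out each array.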

Additional observations from a re-analysis of the deposited data

How the results depend on the processing

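Of the 31 calls at TCR 6 h, 19 held under all 20 alternatives, of the 20 calls between 6 h and 1 h, 10 held under all 18, and of the 2 calls at TCR 1 h, none held under all 19. At TCR 1 h the number of helicases called was 0 with the mean of all probes and on slide 1 alone, 1 with quantile normalization, without a filter, with slide as a block and with the scanner files' naming, 4 with normexp and quantile normalization and 6 with the untreated arrays apart. Leaving out 1 array gave 0 to 2 calls at TCR 1 h, 19 to 31 at TCR 6 h (19 without the 6 h array that also had IFNβ) and 11 to 21 between the times (11 without that array, 12 without its 1 h counterpart). Between the times, the slide block left 12 calls. With normexp and quantile normalization 23 were higher and 8 lower at TCR 6 h, against 28 and 3, and between the times quantile normalization gave 12 higher and 4 lower, against 18 and 2. Ddx25, whose second probe was dim, turned to 1.36 at TCR 6 h and 1.21 between the times with the mean of all probes, and Ddx42 turned to -0.47 at TCR 6 h with normexp and quantile normalization; the cause was not tested. The count for IFNβ was 0 under every alternative that gave a value. No paired analysis was possible because the groups share only replicate number 1; arrays with and without IFNβ at the same TCR time are matched through the terms of the additive model, and slides through the slide block. The interaction terms could not be fitted on single slides or without an array of IFNβ alone. Probes near background limit Ddx4, Ddx60 and Ddx23.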
